A study of Mus musculus with 8 samples.

Results

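The collagen genes were taken as every gene of the expression files whose symbol is Col, a number, the letter a and a number, which gave 44 of the 24849 genes listed. RNA was measured by sequencing of polyA-selected RNA in 8 samples of the MPI-II mouse embryonic stem cell (mESC) line, strain 129S2/SvPas, as fragments scaled to transcript length and to the mapped reads of the library (FPKM). Wild-type (WT) and Pcgf5-/- cells were each sampled at day 0 and at day 6, with 2 samples in each of the 4 conditions. Pcgf5 encodes a Polycomb group RING finger protein, and the question behind the design was what its loss does to mESCs and to their neural differentiation.

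At day 0 all cultures, mutant and control, had been grown on feeder cells in serum medium with leukemia inhibitory factor (LIF) and the inhibitors CHIR99021 and PD0325901. At day 6 all had been plated as a monolayer in N2B27 medium, which drives neural differentiation. The mutant was made with nucleases (TALENs) cutting exon 2, followed by drug selection and picking of single colonies, so each Pcgf5-/- sample descends from a clone, and how many clones the 2 samples stand for is not given in the sources used here. The study describes the samples of its expression maps as biologically independent, but the sources used here do not say whether they were separate cultures or clones, so p-values measure the spread between these samples. Whether feeder cells were removed before RNA was taken is also not given, and day, medium and feeder layer change together, so their effects cannot be told apart.

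Collagens are secreted proteins in which 3 chains wind into a triple helix. Fibrillar collagens (types I, II, III, V, XI, XXIV and XXVII) build the cables of connective tissue and are the main product of fibroblasts. Type IV collagens form the sheet-like network of basement membranes, type VI collagens form beaded filaments, and FACIT collagens coat fibrils without forming their own. Embryonic feeder layers are fibroblasts, so RNA of fibrillar collagens in an mESC culture can come from feeder cells as well as from stem cells, and in bulk samples fewer cells of a type and less RNA per cell cannot be told apart.

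Of the 44 genes, 25 passed the minimum used for testing, a mean above 1 FPKM in at least 1 condition, and so did 13214 of all genes. By class, 9 of 11 fibrillar, 3 of 6 type IV, 4 of 6 beaded filament, 4 of 9 FACIT and 2 of 3 short-chain collagens passed. Col18a1 of the 2 multiplexins, the anchoring fibril gene Col7a1 and Col26a1 passed as well, and none of the 4 transmembrane collagens did. The 19 genes below the minimum had no condition mean above that of Col9a3, 0.996 FPKM, while the lowest tested gene, Col5a3, reached 1.02 FPKM. For 6 of the 19 every condition mean was under 0.1 FPKM.

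The regulatory stretches of 3 fibrillar collagens that fell in Pcgf5-/- cells are shown first, 2 of which (Col1a2 and Col3a1) also fell in WT cells, and after them the shared start of the type IV pair, whose levels followed each other from library to library. Of the 25 tested genes, 19 had an entry among RefSeq promoter windows (GRCm38.p6, from 250 bases before to 50 bases after a start), with 21 windows in all, and Col1a1, Col2a1, Col5a2, Col12a1, Col22a1 and Col26a1 had none. Each of the first 3 lines gives the 150 bases before the RefSeq start on the gene's strand, which is plus for all 3, with capitals marking a CCAAT box in Col1a2, the TATA box letters TATAAA in Col3a1 and the GC box letters GGGCGG in Col5a1. They lie at chr6:4505468-4505617 (Col1a2), chr1:45311388-45311537 (Col3a1) and chr2:27886275-27886424 (Col5a1).
Col1a2: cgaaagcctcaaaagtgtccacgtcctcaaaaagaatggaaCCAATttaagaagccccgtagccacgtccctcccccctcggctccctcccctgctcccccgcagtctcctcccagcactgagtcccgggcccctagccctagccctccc
Col3a1: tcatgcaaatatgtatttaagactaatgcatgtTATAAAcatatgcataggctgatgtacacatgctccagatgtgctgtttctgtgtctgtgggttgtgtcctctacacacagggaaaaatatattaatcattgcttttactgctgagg
Col5a1: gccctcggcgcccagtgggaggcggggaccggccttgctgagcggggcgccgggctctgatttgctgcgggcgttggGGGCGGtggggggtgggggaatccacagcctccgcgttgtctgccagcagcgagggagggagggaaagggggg

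Letters were searched in the 250 bases before each start, CCAAT and GGGCGG on both strands and TATAAA on the strand of the gene, and the searched letters do not overlap. CCAAT was found in 9 of the 21 collagen windows (42.9%) and in 33.8% of all 32851 windows. GGGCGG was found in 15 (71.4%) against 32.7%, and TATAAA in 2 (9.52%), those of Col3a1 and Col10a1, against 7.59%. The collagen windows held from 0 to 31 CG dinucleotides with a median of 10, and all windows a median of 6. The collagen windows are of tested genes only, while all windows include genes not tested here, so these shares compare unlike sets. Among the genes lower at day 6 in a genotype, 8 had windows, 9 in all, of which 1 held CCAAT, 5 GGGCGG and 2 TATAAA. Among those higher, 5 genes had 6 windows, of which 3 held CCAAT, 4 GGGCGG and 0 TATAAA. A match describes letters only.

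Col4a1 (minus strand) and Col4a2 (plus strand) lie head to head on chromosome 8. In the mm9 annotation (GENCODE M1 on NCBIM37) Col4a2 starts at 11312805 and Col4a1 at 11312826, so that their first exons share 22 bases, given in capitals within the plus strand of chr8:11312802-11312831.
Col4a1 and Col4a2 starts: ggcAGTGCGCGGGCGGCGTCTCCAAgggga

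The groups were checked against defining markers before the collagens were read. The WT samples had 5.18 and 3.63 FPKM of Pcgf5 at day 0 against 1.28 and 1.84 FPKM in the mutant (limma adjusted p = 0.105), and at day 6 9.16 and 5.06 FPKM against 0.669 and 0.457 FPKM, a log2 difference of -2.33 (limma adjusted p = 0.00421). All 6 pluripotency markers fell with time in WT cells (5 of 6 in Pcgf5-/- cells), and 5 of 6 neural progenitor markers rose in each genotype. Over all tested genes 16.2% fell and 34.2% rose in WT cells, and 10.4% fell and 21.9% rose in Pcgf5-/- cells. At day 6 the 6 pluripotency markers were higher and 5 of the 6 neural progenitor markers lower in Pcgf5-/- than in WT cells. Of all tested genes 9.57% were higher and 7.05% lower there. Depth relative to WT day 0 #1, read from the steps between the lowest values, ranged from 0.986 to 1.29, and absolute depth is unknown. The median change over all tested genes from day 0 to day 6 was 0.22 in WT and 0.13 in Pcgf5-/- cells on the log2 scale, and quantile normalization shifted these medians by -0.21 and -0.10, and that of the genotype difference at day 0 by -0.12.

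2 libraries stood apart in collagen RNA. In Pcgf5-/- day 0 #2 the collagen genes summed to 716 FPKM against 225 to 369 FPKM in the other day 0 libraries, and it had the highest day 0 value for 19 of the 25 tested genes, among them all 9 fibrillar ones. Its 23 fibroblast markers summed to 978 FPKM against 486 to 657 FPKM in the other day 0 libraries. Single tested markers did not rise evenly over Pcgf5-/- day 0 #1, from 0.829 times for Lum to 5.42 times for Acta2. Pdgfra was at 1.08 times, S100a4 at 1.09, Dcn at 1.58 and Postn at 4.19 times. In WT day 6 #1 the 6 type IV genes summed to 167 FPKM against 41.8 FPKM in WT day 6 #2 and 30.7 and 16.0 FPKM in the Pcgf5-/- day 6 libraries. Its 17 extraembryonic endoderm markers summed to 344 FPKM against 163 FPKM in WT day 6 #2. Results that rest on these libraries are given with and without them.

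**Figure D1:**
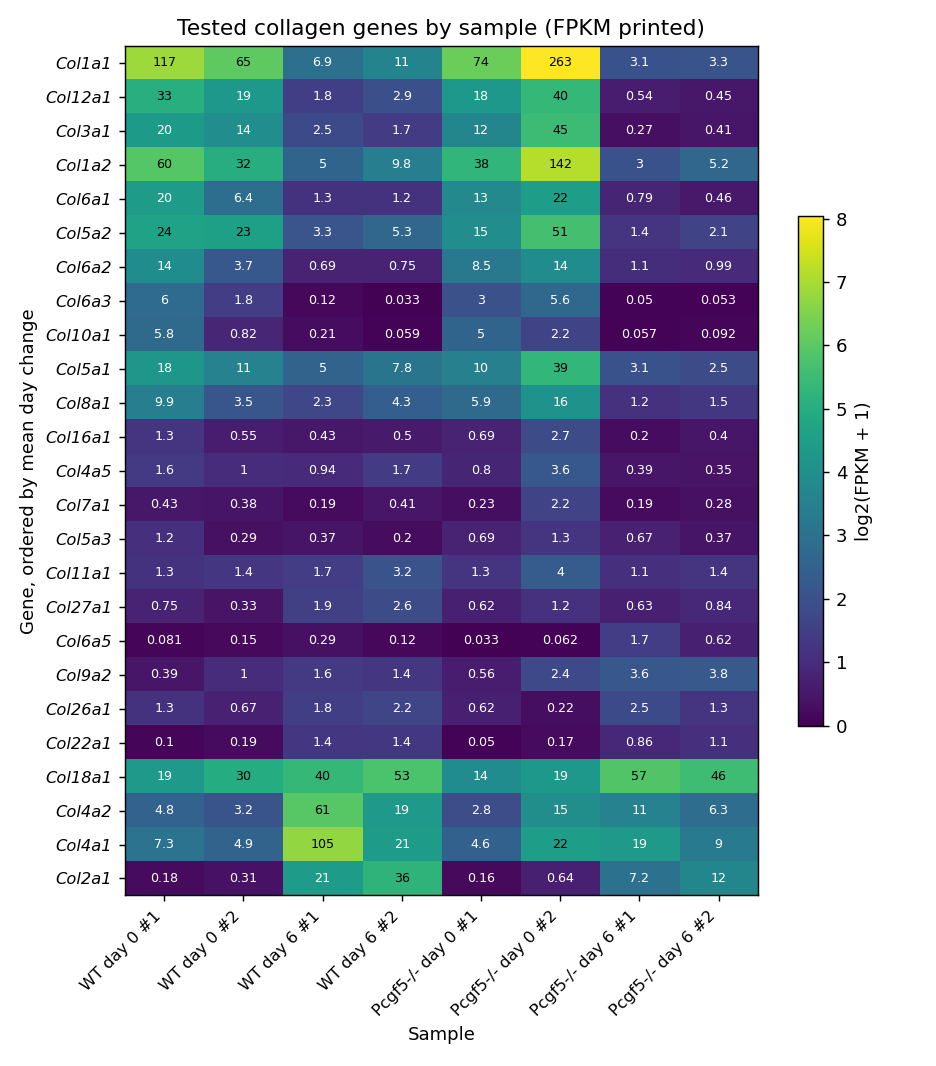
Level of the 25 tested collagen genes in each of the 8 samples. Colour gives log2(FPKM + 1), the printed figure is FPKM, and genes are ordered by their mean change from day 0 to day 6. Col1a1 is the brightest row at day 0, at up to 263 FPKM, and Col2a1, Col4a1, Col4a2 and Col18a1 at the bottom are brighter at day 6.

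Collagen RNA was mostly fibrillar at day 0 and mostly not at day 6. The 11 fibrillar genes held 65.0% to 76.4% of summed collagen FPKM in the 4 day 0 libraries and 16.5% to 41.1% in the 4 day 6 libraries. Type I collagen alone, Col1a1 with Col1a2, held 42.7% to 56.5% at day 0 and 4.40% to 11.0% at day 6. Col1a1 was the most abundant collagen RNA in every day 0 library, Col4a1 in WT day 6 #1, and Col18a1 in the other 3 day 6 libraries. FPKM is per length, so these levels can be set side by side between genes. All collagen genes together made up 0.0573% to 0.180% of summed FPKM at day 0 and 0.0254% to 0.0743% at day 6.

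From day 0 to day 6 in WT cells, 9 collagen genes fell and 6 rose by limma at an adjusted p-value under 0.05, of 25 tested. Over all tested genes 16.2% fell and 34.2% rose by the same rule, and the members' shares were 36% and 24%. The genes that fell were Col1a1, Col1a2, Col3a1, Col5a2, Col6a1, Col6a2, Col6a3, Col10a1 and Col12a1, and those that rose were Col2a1, Col4a1, Col4a2, Col18a1, Col22a1 and Col27a1. The median change of the 25 genes was -0.38 on the log2(FPKM + 1) scale, beside 0.22 for all tested genes. In Pcgf5-/- cells 11 fell and 5 rose, shares of 44% and 20% where 10.4% and 21.9% of all tested genes did, with a median of -0.94 beside 0.13. With quantile normalization this split was 13 and 2, with Col22a1, Col26a1 and Col6a5 no longer passing. The same 9 genes that fell in WT cells also fell in Pcgf5-/- cells, joined there by Col5a1 and Col8a1. Col2a1, Col18a1 and Col22a1 rose in both genotypes, Col4a1, Col4a2 and Col27a1 passed as higher in WT cells alone, and Col26a1 and Col6a5 in Pcgf5-/- cells alone. None of these differences between genotypes passed the interaction test given below. Without the 2 libraries that stood apart 8 fell and 7 rose in WT, and 10 fell and 4 rose in Pcgf5-/- cells.

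**Figure D2:**
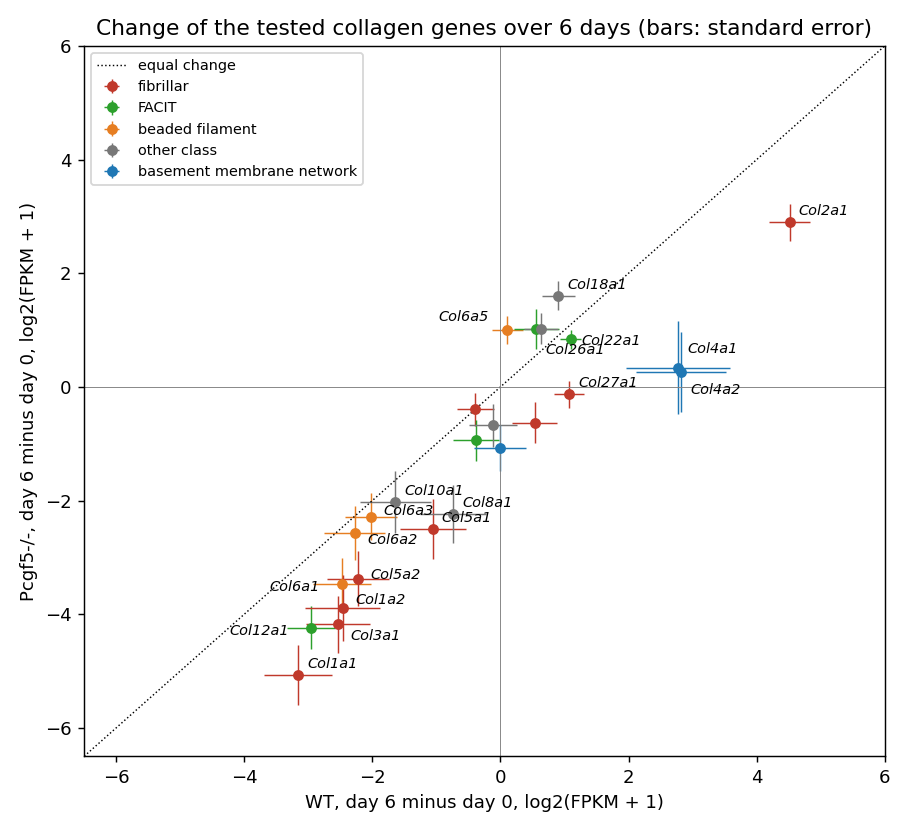
Change from day 0 to day 6 in WT (x axis) and Pcgf5-/- cells (y axis), both as differences of log2(FPKM + 1), for the 25 tested collagen genes. Points are coloured by class, bars are standard errors, and names mark genes that passed in at least 1 genotype. Most points lie below the dotted line of equal change, with Col1a1 at -3.16 and -5.07 and Col2a1 at 4.52 and 2.90.

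Type I collagen, the chief collagen of skin and bone, had the highest collagen RNA at day 0. Col1a1 (chr11:94797584-94813170, mm9), its alpha 1 chain, had 117 and 64.6 FPKM in WT day 0 #1 and #2, and 6.86 and 11.3 FPKM at day 6. The Pcgf5-/- samples had 73.8 and 263 FPKM at day 0 and 3.09 and 3.27 FPKM at day 6. All day 0 samples were above all day 6 samples, and the spread at day 0 in Pcgf5-/- cells (168 ± 134 FPKM, SD, n = 2) was the widest. The change was -3.16 (standard error 0.53, limma adjusted p = 0.00166) in WT and -5.07 (0.53, limma adjusted p = 0.000506) in Pcgf5-/- cells. An antisense gene, Gm17329, overlaps exons of Col1a1, and since the strand of the libraries is not given, reads of the pair cannot be told apart.

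Col1a2 (chr6:4455697-4491543), the alpha 2 chain, had 59.8 and 31.6 FPKM in WT at day 0 and 5.01 and 9.82 FPKM at day 6. Col1a2 in Pcgf5-/- cells had 38.0 and 142 FPKM at day 0 and 3.04 and 5.24 FPKM at day 6. Here too the days did not overlap in either genotype, with changes of -2.47 (limma adjusted p = 0.00874) and -3.89 (limma adjusted p = 0.00240). The WT call was lost without WT day 0 #1 or WT day 6 #1, with limma adjusted p-values up to 0.0654. Type I procollagen is mostly assembled from 2 alpha 1 chains and 1 alpha 2 chain. The ratio of Col1a1 to Col1a2 FPKM was 1.86 to 2.04 in the 4 day 0 libraries and 0.625 to 1.37 in the 4 day 6 libraries, so Col1a1 fell further than Col1a2 in both genotypes.

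Col3a1, which makes the fine fibrils that accompany type I collagen in soft tissue, had 19.8 and 14.3 FPKM in WT at day 0 and 2.51 and 1.70 FPKM at day 6. The Pcgf5-/- samples had 11.8 and 44.6 FPKM at day 0 and 0.269 and 0.414 FPKM at day 6. The mean fell 8.09-fold in WT and 82.6-fold in Pcgf5-/- cells, with changes of -2.53 (limma adjusted p = 0.00364) and -4.17 (limma adjusted p = 0.000931). Col5a2, a chain of the type V collagen that helps to start fibrils, had 24.0 and 22.7 FPKM in WT at day 0 and 3.31 and 5.31 FPKM at day 6, a change of -2.22 (limma adjusted p = 0.00561). The mutant had Col5a2 at 14.5 and 50.5 FPKM at day 0 and 1.37 and 2.13 FPKM at day 6, a change of -3.38 (limma adjusted p = 0.00189). For both genes every day 0 sample was above every day 6 sample.

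Col5a1, the partner chain of Col5a2, had 18.1 and 10.8 FPKM in WT at day 0 and 4.96 and 7.77 FPKM at day 6, and its change of -1.06 did not pass (limma adjusted p = 0.122). The mutant had 10.5 and 39.2 FPKM at day 0 and 3.06 and 2.54 FPKM at day 6, a change of -2.50 (limma adjusted p = 0.00874, up to 0.0558 without Pcgf5-/- day 6 #2). The ratio of Col5a1 to Col5a2 was 0.476 to 0.775 at day 0 and 1.19 to 2.24 at day 6, so the chain that predominated differed between the days. The antisense genes 2810430I11Rik and Gm13372 overlap exons of Col5a1. The remaining tested fibrillar genes of this kind, Col5a3 and Col11a1, did not pass in either genotype, with no sample above 1.34 and 4.05 FPKM.

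The other classes that fell are made of type VI, XII, VIII and X collagens. Type VI collagen links cells to fibrils, and its 3 main chains fell in both genotypes. Col6a1 had 20.2 and 6.43 FPKM in WT at day 0 and 1.27 and 1.24 FPKM at day 6, a change of -2.48 (limma adjusted p = 0.00242). The mutant had Col6a1 at 12.9 and 21.9 FPKM at day 0 and 0.791 and 0.463 FPKM at day 6, a change of -3.46 (limma adjusted p = 0.00128). Col6a2 changed by -2.28 in WT and -2.57 in Pcgf5-/- cells (limma adjusted p = 0.00476 and 0.00551), from 3.65 to 14.1 FPKM over the 4 day 0 samples to 0.688 to 1.07 FPKM over the 4 day 6 samples. Col6a3 changed by -2.02 and -2.28 (limma adjusted p = 0.00414 and 0.00480), from 1.75 to 5.98 FPKM at day 0 to 0.0329 to 0.124 FPKM at day 6. No day 6 sample reached a day 0 sample in any of the 3 genes.

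Col12a1, a FACIT collagen bound to the surface of type I fibrils, had 33.0 and 18.7 FPKM in WT at day 0 and 1.83 and 2.89 FPKM at day 6. The mutant had 18.5 and 39.7 FPKM at day 0 and 0.540 and 0.445 FPKM at day 6. Its mean fell 10.9-fold in WT and 59.1-fold in Pcgf5-/- cells, with changes of -2.96 (limma adjusted p = 0.000424) and -4.24 (limma adjusted p = 0.000271).

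Col8a1, a short-chain collagen of vessel walls and the corneal basement membrane, had 9.93 and 3.47 FPKM in WT at day 0 and 2.29 and 4.33 FPKM at day 6, and the days overlapped (change -0.74, limma adjusted p = 0.262). The mutant had 5.93 and 16.5 FPKM at day 0 and 1.21 and 1.47 FPKM at day 6, a change of -2.24 (limma adjusted p = 0.0134), which was lost without Pcgf5-/- day 0 #2 or either day 6 sample (limma adjusted p up to 0.0695). Col10a1, the collagen of hypertrophic cartilage, had 5.85 and 0.823 FPKM in WT at day 0 and 0.211 and 0.0592 FPKM at day 6. The mutant had 5.03 and 2.16 FPKM at day 0 and 0.0566 and 0.0915 FPKM at day 6. Its changes of -1.64 and -2.02 (limma adjusted p = 0.0364 and 0.0250) were each lost when any of several libraries was left out, with limma adjusted p-values up to 0.180 and 0.146. Nt5dc1 overlaps exons of Col10a1 on the opposite strand.

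Part of the fibroblast markers fell as well. Of 23 markers 21 were tested, of which 10 fell, 1 (Twist1) rose and the others did not pass in WT cells, and 12 fell and 0 rose in Pcgf5-/- cells, where 16.2% and 10.4% of all tested genes fell. Their summed level was 583 to 657 FPKM in WT at day 0 and 417 and 596 FPKM at day 6, and in the mutant 486 and 978 FPKM at day 0 and 294 and 242 FPKM at day 6. The sums overlapped between the days in WT and not in Pcgf5-/- cells. The 3 most abundant markers, Vim, Fn1 and the contractile gene Acta2, are not particular to fibroblasts. Vim had 261 and 211 FPKM in WT at day 0 and 292 and 323 FPKM at day 6, Acta2 had 38.5 and 55.8 FPKM and then 21.9 and 92.0 FPKM, and Fn1, the fibronectin gene, fell from 130 and 135 to 41.9 and 49.2 FPKM (limma adjusted p = 0.00166). Postn, a matrix protein of fibroblasts, changed by -3.19 in WT and -3.91 in Pcgf5-/- cells (limma adjusted p = 0.00266 and 0.00242), and S100a4 by -3.45 and -4.63 (limma adjusted p = 6.03e-05 and 8.97e-05). Fbln2, a matrix protein, changed by -2.45 and -3.89 (limma adjusted p = 0.00529 and 0.00149). Of the 23 markers, 20 had a mean above 1 FPKM in each genotype at day 0, and at day 6 16 did in WT and 14 in Pcgf5-/- cells. Dpt and Fap were listed at 0 in both Pcgf5-/- day 6 samples. Pdgfra and Pdgfrb stand in other lists as well. The part of the marker cells in the fall of the collagens was not tested.

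**Figure D3:**
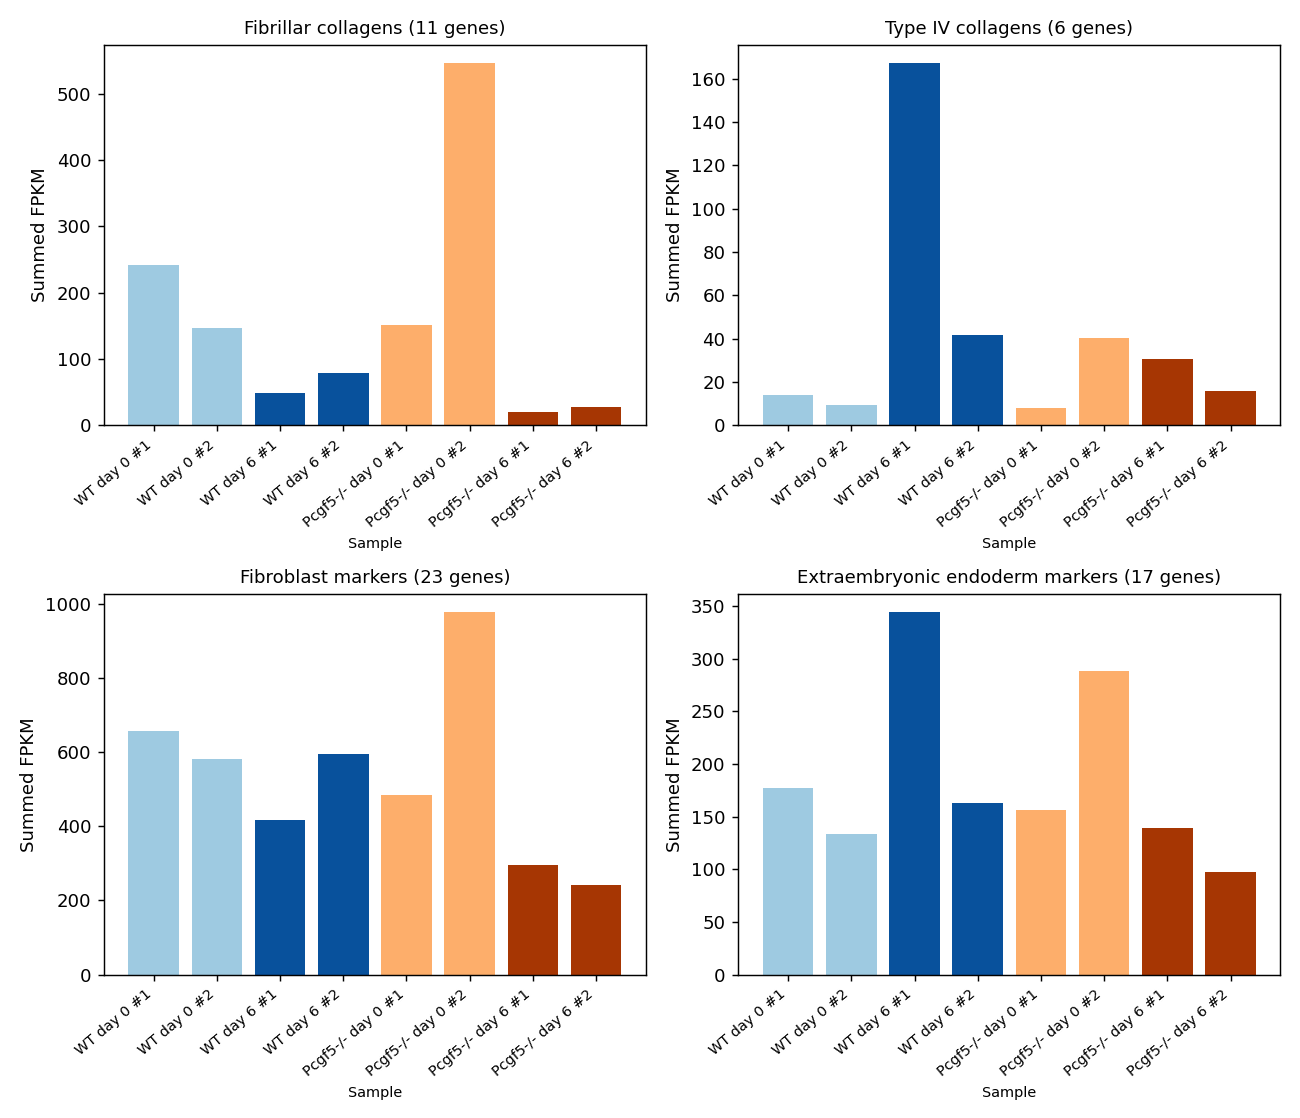
Summed FPKM per sample of the 11 fibrillar and the 6 type IV collagen genes (top) and of 23 fibroblast and 17 extraembryonic endoderm markers (bottom). Each bar is 1 sample, coloured by condition. Pcgf5-/- day 0 #2 has the tallest bar for fibrillar collagens (547 FPKM) and fibroblast markers (978 FPKM), and WT day 6 #1 for type IV collagens (167 FPKM) and endoderm markers (344 FPKM).

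Col2a1, the fibrillar collagen of cartilage, which is also made in the notochord and the early neuroepithelium, went the other way from its relatives. It had 0.183 and 0.309 FPKM in WT at day 0 and 20.8 and 36.2 FPKM at day 6, a change of 4.52 (standard error 0.32, limma adjusted p = 2.68e-05). The mutant had 0.164 and 0.645 FPKM at day 0 and 7.25 and 11.8 FPKM at day 6, a change of 2.90 (0.32, limma adjusted p = 0.000652). The lowest day 6 sample was far above the highest day 0 sample, and both WT day 6 samples were above both Pcgf5-/- day 6 samples. Col27a1, another cartilage-associated fibrillar collagen, had 0.749 and 0.330 FPKM in WT at day 0 and 1.90 and 2.56 FPKM at day 6, a change of 1.07 (limma adjusted p = 0.00585). Its 4 values in Pcgf5-/- cells lay between 0.618 and 1.21 FPKM and the days overlapped (change -0.13, limma adjusted p = 0.706). Col27a1 met the minimum for testing only through WT day 6, the condition where it was highest. Neither its rise in WT nor its genotype difference at day 6 is therefore independent of the filter.

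Col18a1 (chr10:76514924-76629275), a basement membrane collagen whose end fragment is endostatin, rose in both genotypes. It had 19.0 and 30.3 FPKM in WT at day 0 and 39.7 and 53.1 FPKM at day 6, a change of 0.91 (limma adjusted p = 0.0171, up to 0.112 without WT day 0 #1 or WT day 6 #2). The mutant had Col18a1 at 14.0 and 18.7 FPKM at day 0 and 57.0 and 46.1 FPKM at day 6, a change of 1.60 (limma adjusted p = 0.00276). Col22a1, a FACIT collagen known from tissue junctions, rose from 0.101 and 0.190 to 1.44 and 1.45 FPKM in WT and from 0.0503 and 0.168 to 0.860 and 1.10 FPKM in Pcgf5-/- cells. Its changes were 1.10 and 0.84 (limma adjusted p = 0.00108 and 0.00779), and Gm16308 overlaps its exons on the opposite strand. Col22a1 met the minimum for testing only through WT day 6, so its WT call is not independent of the filter.

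Col26a1 and Col6a5 passed as higher in Pcgf5-/- cells only. Col6a5 met the minimum for testing only through Pcgf5-/- day 6, with a mean of 1.17 FPKM, so its call is not independent of the filter. Col26a1 had 0.616 and 0.223 FPKM at day 0 and 2.51 and 1.34 FPKM at day 6 (change 1.03, limma adjusted p = 0.0210). In WT cells it had 1.27 and 0.671 FPKM and then 1.84 and 2.23 FPKM (change 0.64, limma adjusted p = 0.0771). Col6a5, an alternative type VI chain, rose in the mutant from 0.0328 and 0.0616 FPKM to 1.73 and 0.622 FPKM (change 1.01, limma adjusted p = 0.0165). In WT cells all 4 values of Col6a5 were at or below 0.285 FPKM (change 0.11, limma adjusted p = 0.737). Both calls were lost without Pcgf5-/- day 0 #2 or Pcgf5-/- day 6 #1, and that of Col6a5 also without Pcgf5-/- day 0 #1, with limma adjusted p-values up to 0.115 for Col26a1 and 0.0722 for Col6a5. Of the tested genes that passed in neither genotype, Col9a2 had the highest day 6 level, with 1.56 and 1.41 FPKM in WT and 3.55 and 3.76 FPKM in Pcgf5-/- cells. The others were Col4a5, Col5a3, Col7a1, Col11a1 and Col16a1, with no value above 4.05 FPKM.

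**Figure D4:**
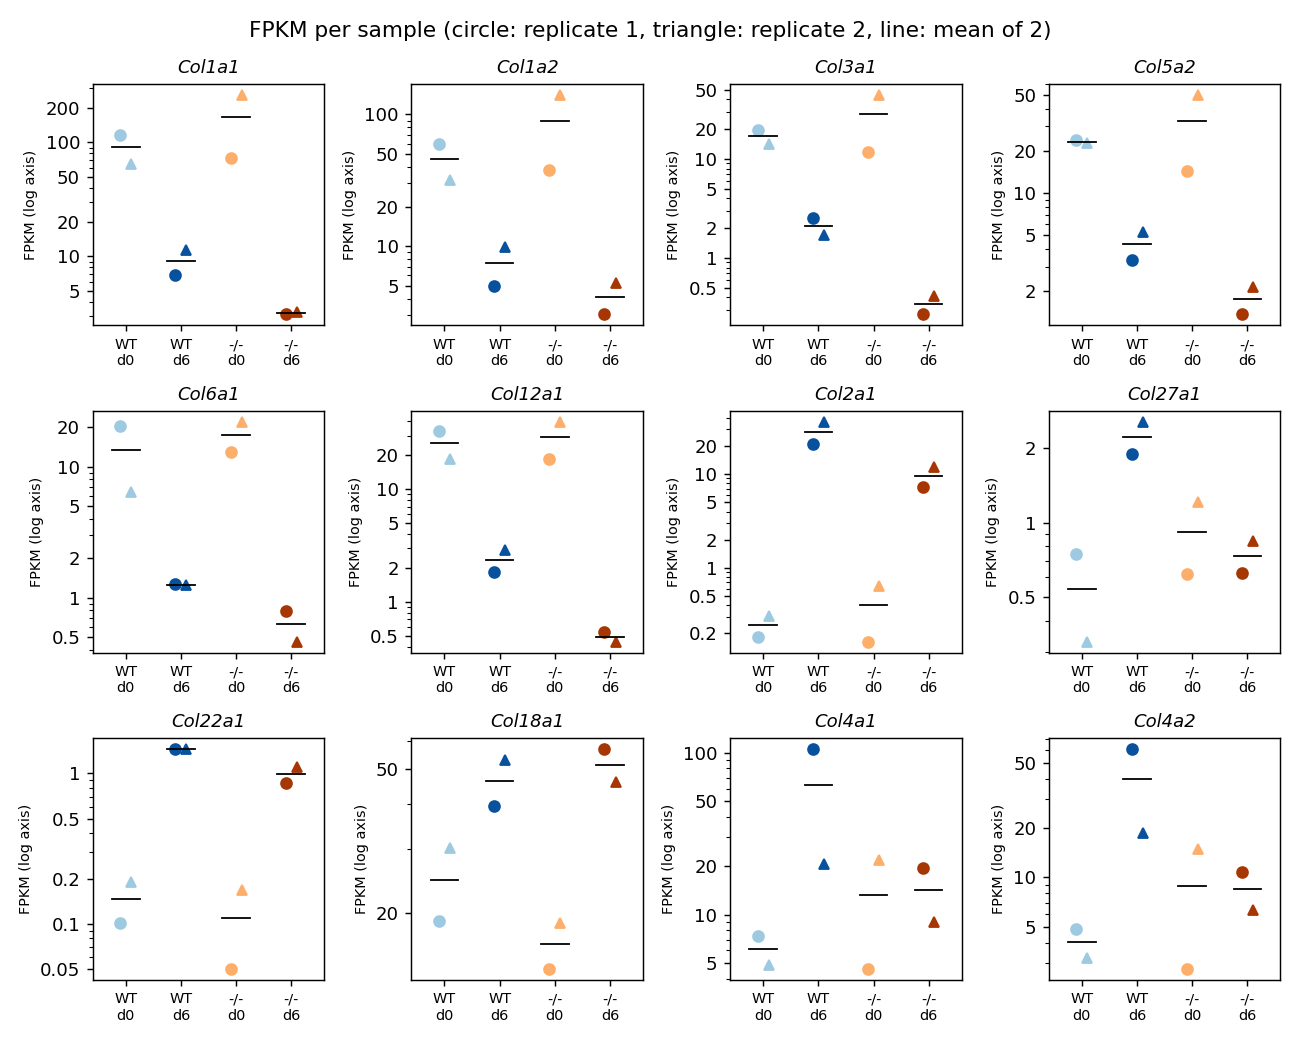
FPKM on log axes for 12 collagen genes in WT and Pcgf5-/- (-/-) cells at day 0 (d0) and day 6 (d6). Circles are replicate 1, triangles replicate 2 and lines the mean of 2. The first 6 genes are lower in every day 6 sample than in any day 0 sample, Col2a1, Col18a1 and Col22a1 are higher, and Col4a1 and Col4a2 have 1 WT day 6 sample, at 105 and 60.8 FPKM, well above the rest.

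The type IV pair rose in WT cells, with the size of the rise depending on the library. Col4a1 (chr8:11198423-11312826), which with Col4a2 forms the common basement membrane network, had 7.34 and 4.90 FPKM in WT at day 0 and 105 and 20.6 FPKM at day 6. Col4a2 (chr8:11312829-11449287) had 4.81 and 3.21 FPKM at day 0 and 60.8 and 18.8 FPKM at day 6. The days did not overlap, and the changes were 2.77 for Col4a1 (standard error 0.82, limma adjusted p = 0.0218) and 2.82 for Col4a2 (0.70, limma adjusted p = 0.0104). Without WT day 6 #1 they were 1.62 and 2.00 and did not pass (limma adjusted p = 0.131 and 0.0679). They were also lost without WT day 0 #2, and that of Col4a1 without WT day 0 #1. Without both libraries that stood apart they did pass (limma adjusted p = 0.0292 and 0.00693).

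The mutant had Col4a1 at 4.62 and 21.7 FPKM on day 0 and at 19.4 and 8.99 FPKM on day 6, and Col4a2 at 2.76 and 14.8 FPKM at day 0 and 10.7 and 6.28 FPKM at day 6. The days overlapped for both, and the changes of 0.34 and 0.26 did not pass (limma adjusted p = 0.780 and 0.803). Without Pcgf5-/- day 0 #2 the changes were 1.35 and 1.30. The ratio of Col4a1 to Col4a2 stayed between 1.10 and 1.81 over the 8 libraries, so the pair moved together from library to library, while each gene alone spanned more than that. The genes overlap on opposite strands only in the shared 22 bases in capitals above, and Gm15419 overlaps exons of Col4a2.

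Part of the extraembryonic endoderm markers, of cells that lay down thick type IV and laminin membranes, differed with the type IV pair between the libraries of each genotype at day 6. Others differed less. In WT and Pcgf5-/- cells at day 6, #1 was at 1.03 and 0.969 times #2 for Plat, and at 1.40 and 1.14 times for Sparc. Gata4, a transcription factor of this lineage, had 10.6 and 0.706 FPKM in WT day 6 #1 and #2, and Gata6 had 5.70 and 0.405 FPKM. Sox17 had 2.48 and 0.187 FPKM and the endocytic receptor gene Cubn 11.2 and 0.225 FPKM. In the mutant at day 6 these genes were also higher in #1, by 3.14 times for Gata4, 5.77 times for Gata6, 18.7 times for Sox17 and 23.4 times for Cubn, with Col4a1 higher by 2.16 times and Col4a2 by 1.71 times. In Pcgf5-/- day 0, #2 was at 4.70 times #1 for Col4a1 and 5.36 times for Col4a2. The same markers did not all follow there, with Gata4 at 1.40, Gata6 at 3.35, Sox17 at 1.08 and Cubn at 0.481 times. Gata4, Gata6, Sox17 and Cubn were named after their values were seen. Of 17 markers, 14 were tested, and Dab2, Pth1r and Plat rose in WT cells by 2.78, 2.61 and 3.00 (limma adjusted p = 0.00621, 0.00169 and 0.00253), where 34.2% of all tested genes rose. In Pcgf5-/- cells 2 (Sparc and Thbd) fell, where 10.4% of all tested genes did. At day 0 the summed marker level was 177 and 133 FPKM in WT and 157 and 288 FPKM in Pcgf5-/- cells, and at day 6 it was 344 and 163 FPKM in WT and 139 and 97.0 FPKM in Pcgf5-/- cells. Of the 17, 13 had a mean above 1 FPKM in WT at day 6 and 6 to 8 in the other conditions, and 3 (Lama1, Pdgfra, Sparc) stand in other lists. Afp and Ttr were listed at 0 in both Pcgf5-/- day 0 samples. The part of such cells in the levels of Col4a1 and Col4a2 was not tested.

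Markers of other collagen-making cells were looked at in the same way. Beside the counts below, 34.2% of all tested genes rose and 16.2% fell in WT cells. In Pcgf5-/- cells 21.9% rose and 10.4% fell. Of 5 tested endothelial markers, 2 fell in WT and 1 in Pcgf5-/- cells, with Pecam1, which mESCs express, highest at 60.6 FPKM in Pcgf5-/- day 0 #2, and Cdh5, which defines vessels, at or below 0.423 FPKM throughout. Of 4 tested mural markers 1 rose and 2 fell in each genotype, and Rgs5 was at or below 0.115 FPKM. Of 7 tested neural crest markers 3 rose and 3 fell in WT, and 2 rose and 2 fell in Pcgf5-/- cells, and Sox10 was at or below 0.161 FPKM.

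At day 0, the comparison of Pcgf5-/- with WT cells asked what the loss of Pcgf5 does in undifferentiated mESCs. No collagen gene passed by limma, and 0 had an unadjusted p-value under 0.05. Over all tested genes 0.288% were higher and 0.0454% lower, and 17.4% had an unadjusted p-value under 0.05. The median difference of the 25 members was 0.39 beside 0.11 for all genes. The differences were 0.68 for Col1a1 (limma adjusted p = 0.567) and 0.74 for Col1a2 (limma adjusted p = 0.568), and without Pcgf5-/- day 0 #2 they were -0.23 and -0.19. Groups overlapped for 22 of the 25 genes. In the other 3, Col18a1, Col26a1 and Col6a5, both Pcgf5-/- samples were below both WT samples, as for 13.3% of all tested genes, and in 0 genes above, as for 34.6%. Col1a1 is on chromosome 11 and Col1a2 on chromosome 6, whose tested genes had median differences between genotypes of 0.48 and 0.41 at day 0, with 0.04 to 0.12 on the other autosomes, and of 0.38 and 0.37 at day 6. With each chromosome centred on its median the difference of Col1a1 was 0.20 at day 0.

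At day 6 the comparison asked how the genotypes differ after neural differentiation. Col2a1 and Col27a1 were lower in Pcgf5-/- cells and no collagen gene was higher in the main fit, where 7.05% of all tested genes were lower and 9.57% higher. With a replicate block for each day, Col6a5 and Col9a2 also passed, as higher in Pcgf5-/- cells. WT samples held Col2a1 at 28.5 ± 10.9 FPKM (SD, n = 2) and Pcgf5-/- samples at 9.55 ± 3.25 FPKM (SD, n = 2), a difference of -1.47 (standard error 0.32, limma adjusted p = 0.0211). The means of Col27a1 were 2.23 ± 0.465 and 0.735 ± 0.153 FPKM (SD, both n = 2), a difference of -0.89 (0.23, limma adjusted p = 0.0371). Neither pair of groups overlapped. The call of Col2a1 was lost without WT day 6 #2 or Pcgf5-/- day 6 #1, and that of Col27a1 without any 1 of the day 6 samples, with limma adjusted p-values up to 0.124 and 0.171. With smaller pseudocounts (0.1 and 0.01) neither passed, with limma adjusted p-values up to 0.136 for Col2a1 and 0.0925 for Col27a1, and Col12a1 and Col3a1 were lower instead. With a pseudocount of 0.01 the difference of Col12a1 was -2.21 (limma adjusted p = 0.0176) and that of Col3a1 -2.59 (limma adjusted p = 0.0257).

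The median difference of the 25 genes at day 6 was -0.60 beside 0.02 for all tested genes. An unadjusted p-value under 0.05 was found for 8 of the 25, Col2a1 and Col27a1 among them, a share near the 32.7% of all tested genes. Of these 8, Col6a5 and Col9a2 had higher values in Pcgf5-/- cells. In 15 of the 25 genes, Col2a1 and Col27a1 included, both Pcgf5-/- samples were below both WT samples, as for 28.8% of all tested genes. In 3 (Col6a2, Col6a5 and Col9a2) they were above, as for 33.4% of all, and in 7 the groups overlapped. For Col1a1 the difference was -1.23 (limma adjusted p = 0.151), and -1.61 with chromosomes centred (limma adjusted p = 0.0829). For Col12a1 it was -1.15 (limma adjusted p = 0.0721), for Col3a1 -1.20 (limma adjusted p = 0.139) and for Col4a2 -1.92 (limma adjusted p = 0.0963). Without WT day 6 #1 the difference of Col4a2 was -1.10 and that of Col4a1 moved from -1.75 to -0.60. Leaving out either Pcgf5-/- day 0 sample, which the contrast does not contain, raised the number that passed from 2 to 8, since it changes the shared estimate of the spread. At day 6, 2 of 21 tested fibroblast markers, Vim and S100a4, were lower in Pcgf5-/- cells (limma adjusted p = 0.00995 and 0.0365). That share is near the 7.05% of all tested genes that were lower, and both calls were lost with single libraries left out. Of 14 tested extraembryonic endoderm markers 0 differed, where 9.57% of all tested genes were higher and 7.05% lower.

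Whether the change over 6 days differed between the genotypes was tested as an interaction. By limma 0 collagen genes passed, and 1.34% of all tested genes were higher and 1.75% lower. An unadjusted p-value under 0.05 was found for 8 collagen genes and for 23.2% of all tested genes. The smallest adjusted p-values were those of Col27a1 (-1.20, limma adjusted p = 0.0861) and Col2a1 (-1.62, limma adjusted p = 0.0889). Col4a1 and Col4a2 differed by -2.44 and -2.56 (limma adjusted p = 0.251 and 0.174), and Col1a1 by -1.91 (limma adjusted p = 0.181). The median over the members was -1.06 beside -0.10 for all genes. The 2 day comparisons share no sample, while each shares samples with the genotype comparisons.

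The genes that make, process and bind collagen were read from lists. Over all tested genes 34.2% rose and 16.2% fell in WT cells, and 21.9% rose and 10.4% fell in Pcgf5-/- cells. These shares stand beside the counts of this list and of each list below, and no list was tested as a set. Chains are hydroxylated and folded in the endoplasmic reticulum. Of 17 tested folding and modification genes, 2 rose and 3 fell in WT, and 4 fell in Pcgf5-/- cells. Serpinh1, the collagen chaperone HSP47, had 34.8 and 40.9 FPKM in WT at day 0 and 104 and 99.4 FPKM at day 6, a change of 1.41 (limma adjusted p = 0.0203, up to 0.0979 with single WT samples left out). P3h2, a prolyl 3-hydroxylase that acts on type IV collagen, rose in WT by 1.96 (limma adjusted p = 0.000561) and was lower in Pcgf5-/- cells at day 6, with a difference of -1.45 (limma adjusted p = 0.0120, up to 0.0696 without WT day 6 #2 or either Pcgf5-/- day 6 sample, and up to 0.0974 with smaller pseudocounts). Its values at day 6 were 3.26 and 5.28 FPKM in WT and 0.914 and 0.881 FPKM in Pcgf5-/- cells. Crtap, a partner of prolyl 3-hydroxylase 1, changed by -1.50 in WT (limma adjusted p = 0.000124) and by -0.99 in Pcgf5-/- cells (limma adjusted p = 0.00230). Mia3 was listed at 0 in all samples.

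Lysyl oxidases cross-link secreted collagen. Of 5 tested, 1 fell in WT and 5 fell in Pcgf5-/- cells, where 16.2% and 10.4% of all tested genes fell. Lox had 51.8 and 31.0 FPKM in WT at day 0 and 8.39 and 11.2 FPKM at day 6, and 35.0 and 111 FPKM and then 1.46 and 3.08 FPKM in Pcgf5-/- cells. Its changes were -1.94 and -4.32 (limma adjusted p = 0.0125 and 0.000771), the former lost without WT day 0 #1 or WT day 6 #1 (limma adjusted p up to 0.0856). Its difference at day 6 was -1.76 (limma adjusted p = 0.0474), which was lost under 11 of 20 alternatives with limma adjusted p-values up to 0.222. In Pcgf5-/- day 0 #2 Lox was 3.16 times and Loxl2 4.46 times the value of Pcgf5-/- day 0 #1, and Col1a1 3.56 times.

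Of 4 tested genes of procollagen processing, 2 fell in each genotype and 1, the peptidase gene Adamts14, rose in Pcgf5-/- cells. Pcolce, an enhancer of procollagen C-proteinase, had 74.7 and 40.2 FPKM in WT at day 0 and 5.15 and 5.46 FPKM at day 6, a change of -3.15 (limma adjusted p = 4.51e-05), and changed by -3.04 in Pcgf5-/- cells (limma adjusted p = 0.000216). Pcolce2 fell in both and was higher in Pcgf5-/- cells at day 6, with 7.42 and 7.22 FPKM against 2.37 and 1.41 FPKM (1.55, limma adjusted p = 0.00421).

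Among the receptors, 3 of 9 were tested. Ddr1, the collagen receptor kinase of epithelial and neural cells, rose from 3.98 and 2.58 to 21.1 and 24.2 FPKM in WT and from 4.49 and 6.14 to 10.5 and 11.6 FPKM in Pcgf5-/- cells. Ddr2, its counterpart in fibroblasts, fell from 2.67 and 2.38 to 0.340 and 0.553 FPKM and from 1.60 and 4.13 to 0.473 and 0.192 FPKM. The changes were 2.48 and 0.94 for Ddr1 (limma adjusted p = 7.06e-05 and 0.0136), the latter lost without Pcgf5-/- day 0 #1 or day 6 #2 (up to 0.0863). For Ddr2 they were -1.29 and -1.46 (limma adjusted p = 0.00875 and 0.00906, the latter 0.0622 without Pcgf5-/- day 6 #2).

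Of 12 tested basement membrane partners, 1 rose and 4 fell in each genotype. Nid1 and Nid2, the nidogens that bridge type IV collagen and laminin, did not follow Col4a1 from day 0 to day 6. Between the day 6 libraries both were higher in #1, as Col4a1 was. The factors were 1.68 and 1.83 times in WT, beside 5.12 for Col4a1, and 1.79 and 1.59 times in Pcgf5-/- cells, beside 2.16. Nid1 changed by -2.94 in WT and -2.38 in Pcgf5-/- cells (limma adjusted p = 0.000104 and 0.000852). Nid2 had 68.7 and 70.8 FPKM in WT at day 0 and 22.2 and 12.1 FPKM at day 6, and 57.0 and 56.0 FPKM and then 64.4 and 40.4 FPKM in Pcgf5-/- cells, a change of -2.02 in WT (limma adjusted p = 0.000648) and of -0.14 in Pcgf5-/- cells (limma adjusted p = 0.727). Lamb1, a laminin chain, had 59.6 and 14.7 FPKM in WT day 6 #1 and #2 and rose by 1.80 (limma adjusted p = 0.0445), a call lost under 11 of 19 alternatives.

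Of 6 tested genes of collagen breakdown, 1 rose and 2 fell in WT, and 5 fell in Pcgf5-/- cells. Mmp2, a gelatinase, changed by 1.20 in WT (limma adjusted p = 0.0293, up to 0.181 without WT day 0 #2 or WT day 6 #1) and 0.86 in Pcgf5-/- cells (limma adjusted p = 0.118). Timp1, an inhibitor of matrix metalloproteinases, changed by -2.76 and -1.62 (limma adjusted p = 1.07e-05 and 0.000313). Ctsk, the collagen-cutting cathepsin K, changed by -1.13 and -1.99 (limma adjusted p = 0.00739 and 0.00132) and was at 0.776 FPKM or below in every day 6 sample.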

How the data were processed

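RNA-seq libraries of 8 samples were grouped by genotype and day from the GEO labels, 2 per condition. Per the labels and the methods of the study, the authors trimmed reads, removed short, duplicate and N-rich reads, aligned them to mm9 with TopHat2 (2.0.4) and deposited FPKM per gene from Cufflinks (2.1.1). FPKM are not counts, so library depth is unknown and no counting interval was given. From these values log2(FPKM + 1) was fitted with limma 3.58.1 (R 4.3.3, trend, two-sided) over all 13214 genes with a mean above 1 FPKM in at least 1 condition, with 1 mean for each of the 4 conditions, 5 contrasts and Benjamini-Hochberg adjustment over all tested genes. A change is the difference of these log2 values, which understates the change of low genes. With 2 against 2 samples an exact permutation test of 1 value cannot go below p = 0.333, so none was run. The fit was tested on simulated data. The collagen genes, classes and other lists were chosen with earlier results of these data known. Any collagen gene could be named, with values per sample for those that passed in a contrast or were among the 10 most abundant, and from each other list at most 4 genes with the largest change, plus the 3 most abundant of a marker list. Genes named outside this rule (Twist1, Dpt, Fap, Sparc, Thbd, Afp, Ttr, Cdh5, Rgs5, Sox10, Mia3 and Mmp2) were chosen after their values were seen. Alternatives were the pseudocount, the minimum, the normalization, a replicate block, chromosome centring and leaving out samples. Leaving out the 2 libraries that stood apart, and samples outside a contrast, was added after seeing the data. Coordinates are 1-based on mm9 from the files, and promoter windows are from RefSeq on GRCm38.p6.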

Additional observations from a re-analysis of the deposited data

Results flagged for a closer look

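3 genes of the collagen pathway lists changed differently over the 6 days in Pcgf5-/- and WT cells by the interaction test (limma adjusted p under 0.05), while no collagen gene did. These lists held 17, 5, 4, 3, 12 and 6 tested genes. Over all tested genes 1.34% were higher and 1.75% lower in this test. For Ddr1 the change in Pcgf5-/- cells minus that in WT cells was -1.54 (limma adjusted p = 0.0435, 0.0379 to 0.177 over its alternatives). For Nid2 it was 1.88 (limma adjusted p = 0.0491, 0.0165 to 0.155). For Timp1 it was 1.13 (limma adjusted p = 0.0384, 0.0220 to 0.167). The calls of Ddr1 and Nid2 were lost under 13 and that of Timp1 under 10 of 18 alternatives, with the direction kept in all of them.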

How the results depend on the processing

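Depth is unknown, and with 2 samples per condition 1 library can decide a call. Of 33 calls of a collagen gene in a contrast, 20 kept their side of the threshold under each of the alternatives run, 13 lost it under at least 1, and 0 reversed. Among differences that did not pass, those of Col1a1 and Col1a2 between genotypes at day 0 turned to -0.23 and -0.19 without Pcgf5-/- day 0 #2, and the same without both libraries that stood apart, and ranged up to 1.59 and 1.68 with other single samples left out. The changes of Col4a1 and Col4a2 in Pcgf5-/- cells turned to -0.67 and -0.78 without Pcgf5-/- day 0 #1 and to -0.18 and -0.08 without Pcgf5-/- day 6 #1, and were highest, at 1.35 and 1.30, without Pcgf5-/- day 0 #2. The cause was not tested. Leaving out 1 sample at a time, the number of collagen genes called ranged from 11 to 16 in WT and from 12 to 18 in Pcgf5-/- cells over time, from 0 to 8 between genotypes at day 6 (0 without WT day 6 #2 or Pcgf5-/- day 6 #1, 1 without WT day 6 #1, and 8 without either Pcgf5-/- day 0 sample), and from 0 to 2 for the interaction (2, Col1a1 and Col3a1, without Pcgf5-/- day 0 #1). The 2 genes called between genotypes at day 6 were 1 with a minimum of 5 FPKM, 0 with no minimum, where more genes are tested, and 5 with only the compared groups fitted. The labels do not say that replicate numbers pair the samples. Deviations of same-numbered samples correlated at 0.39 between the genotypes at day 6, at 0.10 at day 0 and at -0.08 to -0.02 across days. The fit without a block was kept as the main one. The low correlations across days do not bear on the genotype contrast at day 6, whose groups gave the 0.39. With the replicate number as a block, 15 and 17 genes were called over time in WT and Pcgf5-/- cells and 1 (Col2a1) in the interaction, where 0 were called without it. With a block for each day 4 were called between genotypes at day 6, with Col6a5 and Col9a2 higher and Col2a1 and Col27a1 lower in Pcgf5-/- cells, and 1 in the interaction. With a pseudocount of 0.1 or 0.01 the 2 called there were Col3a1 and Col12a1. The genotype comparison at day 0 gave 0 under each alternative. 3 genes were lower at day 6 without both libraries that stood apart (Col1a1, Col2a1 and Col5a2).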

Other observations

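Within a condition, collagens of different classes did not vary by the same factor between the 2 samples. In Pcgf5-/- day 0, #2 exceeded #1 by 3.56 times in Col1a1, 3.72 times in Col1a2, 3.78 times in Col3a1, 3.48 times in Col5a2 and 3.74 times in Col5a1, and by 1.70, 1.65 and 1.87 times in Col6a1, Col6a2 and Col6a3. Among fibroblast markers Postn, Acta2 and Tagln were 4.19, 5.42 and 4.61 times higher there, and Prrx1 and Dcn 1.62 and 1.58 times. In WT day 0, #1 exceeded #2 by 1.81 times in Col1a1 and 1.39 times in Col3a1, but by 3.15, 3.83 and 3.41 times in Col6a1, Col6a2 and Col6a3, and by 3.45 and 4.47 times in Prrx1 and Dcn, while Postn, Acta2 and Tagln were at 0.683, 0.690 and 0.572 times. The factors of Col6a1, Col6a2 and Col6a3 were near those of Prrx1 and Dcn in both pairs of samples. Fibroblast markers did not share this, with Lum at 12.8 and 0.829 times in the WT and Pcgf5-/- pairs. Mfap5 was at 1.04 and 1.28 times and Thy1 at 0.828 and 2.76 times, while Pdgfrb was nearer, at 2.53 and 1.87 times. The factors of Col1a1, Col1a2, Col3a1, Col5a1 and Col5a2 were nearer to Postn, Acta2 and Tagln in Pcgf5-/- day 0. In WT day 0, Col1a1, Col1a2, Col3a1 and Col5a1 went the opposite way from Postn, Acta2 and Tagln. Col5a2 hardly differed there, at 1.05 times in #1 over #2. Other fibrillar genes differed, with Col2a1 and Col11a1 at 0.592 and 0.903 times in WT day 0 #1 over #2. Col5a3 and Col27a1 were at 1.95 and 1.97 times in Pcgf5-/- day 0 #2 over #1. The fibroblast marker Fbln2 was near Col1a1 in both pairs, at 3.59 times in Pcgf5-/- and 1.97 times in WT day 0. Col10a1 was at 7.10 times in WT day 0 #1 over #2 and 0.430 times in Pcgf5-/- day 0 #2 over #1. These genes were chosen after their values were seen, and no test was made.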
